A study of Sus scrofa with 14 samples.

Results

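The whole mammary gland of the sow at farrowing (L0, day 0 of lactation) was compared with the gland at day 90 of gestation (G90), with 2 single-nucleus libraries at each stage. Nuclei with at least 300 detected genes were taken, 51053 of the 127926 such nuclei in the 10 libraries of the series, and the unique molecular identifiers (UMIs, each marking 1 RNA molecule) of every gene were summed for each library. The sums were made over all nuclei of a library and, apart, over its stromal nuclei, which were defined by at least 2 UMIs over DCN, COL1A1, COL1A2, PTPRB, MMRN1 and RGS5 together with 0 UMIs of EPCAM. This gave 11469 and 18694 nuclei at G90 (replicates 1 and 2) and 11477 and 9413 at L0, of which 2005, 627, 451 and 136 were stromal.

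The animals of both stages were multiparous sows on a standard diet, each library came from the snap-frozen mammary tissue of 1 gland, taken at the same right-side position, and no group was treated. Nuclei were isolated from the frozen tissue, and all libraries were made with the same kit. What share of the UMIs was nuclear RNA was not measured. The labels and methods give neither a batch nor a sequencing date. The library, here 1 sow, was the replicate, so every comparison rests on 2 against 2.

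In the last part of gestation the alveoli of the mammary gland fill with secretory epithelial cells that begin to make milk proteins, and around farrowing the fall of progesterone, with prolactin and cortisol present, starts copious secretion. Prolactin acts through its receptor and the STAT5 factors on casein genes, and cortisol acts through the glucocorticoid receptor, whose direct targets include FKBP5, TSC22D3 and ZBTB16. The stroma around the alveoli holds fibroblasts that lay down collagen, blood and lymphatic vessels, and the mural cells of vessel walls.

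UMIs in nuclei numbered 33171874 and 53163303 at G90 and 28141076 and 19878302 at L0, with a median between 1637 and 2496 per nucleus. Levels are given as CPM, the UMIs of a gene per 1000000 after the total of each library was multiplied by a TMM scaling factor, 1.34 and 0.972 at G90 and 0.904 and 0.848 at L0 for all nuclei, so that CPM differ from plain shares of the total. The glands carried the markers of mammary epithelium, with EHF, a factor of epithelial cells, at 1030 and 1291 CPM at G90 and 1091 and 1447 CPM at L0. Pairs of these libraries shared at most 122 barcodes, no more than 1.15% of the smaller library. The 2 G90 libraries stood apart from each other before any comparison of stages was made. The summed level of 31 interferon-stimulated genes was 9760 CPM in G90 replicate 2 but 470 CPM in G90 replicate 1, 1367 and 1017 CPM at L0. Caseins took 0.806% of the UMIs of G90 replicate 2 and 0.121% of those of G90 replicate 1.

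Stromal nuclei made up 17.5% of G90 replicate 1 and 3.35% of G90 replicate 2, against 3.93% and 1.44% at L0, so the stages overlapped. The mean share at L0 minus that at G90 was -7.73 percentage points, a difference within the spread between sows (exact two-sided permutation test, p = 0.667, and 2 against 2 cannot go below 0.333). Without G90 replicate 1 the difference was -0.667 points. The rule depends on depth, and after each nucleus was thinned to 500 UMIs the shares were 8.39% and 1.79% at G90 and 2.37% and 0.765% at L0. Nuclei with any EPCAM UMI, the adhesion molecule of epithelial cells, made up 24.0% and 37.1% at G90 and 25.7% and 17.7% at L0 (p = 0.667 in the same exact test). After thinning to 500 UMIs these shares were 5.70% and 10.1% at G90 and 7.70% and 5.67% at L0. The mean at L0 minus that at G90 was then -1.20 percentage points, against -8.86 before. In RNA summed over a gland, fewer cells of a type and less RNA per cell cannot be told apart.

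The genes of the rule described who the stromal nuclei were. A UMI of COL1A2 was found in 56.9% and 49.3% of stromal nuclei at G90 and in 55.7% and 39.0% at L0, and one of DCN, a fibroblast proteoglycan, in 32.0%, 33.2%, 39.7% and 30.9%. PTPRB, of blood vessel endothelium, was found in 23.1%, 20.3%, 26.2% and 32.4%. MMRN1, of lymphatic endothelium, was found in 22.0%, 34.8%, 19.3% and 21.3%, and the mural gene RGS5 in at most 8.82%. At the edge of the rule, 644, 164, 136 and 50 nuclei had exactly 2 UMIs of these genes, and 1715, 855, 562 and 173 nuclei without EPCAM had exactly 1 and were counted among the other nuclei.

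Stromal nuclei also carried milk RNA. A casein UMI was found in 31.0% and 78.6% of them at G90 and in 90.5% and 76.5% at L0, and caseins took 0.0518%, 0.263%, 0.485% and 0.353% of their UMIs. Both L0 values lay above both G90 values (exact permutation p = 0.333, the smallest this design allows). Summed mitochondrial messenger RNA in stromal nuclei was 16934 and 4957 CPM at G90 and 31362 and 34402 CPM at L0. What part RNA from outside the nucleus had in the stromal results was not tested beyond the sums over casein-free nuclei.

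**Figure D1:**
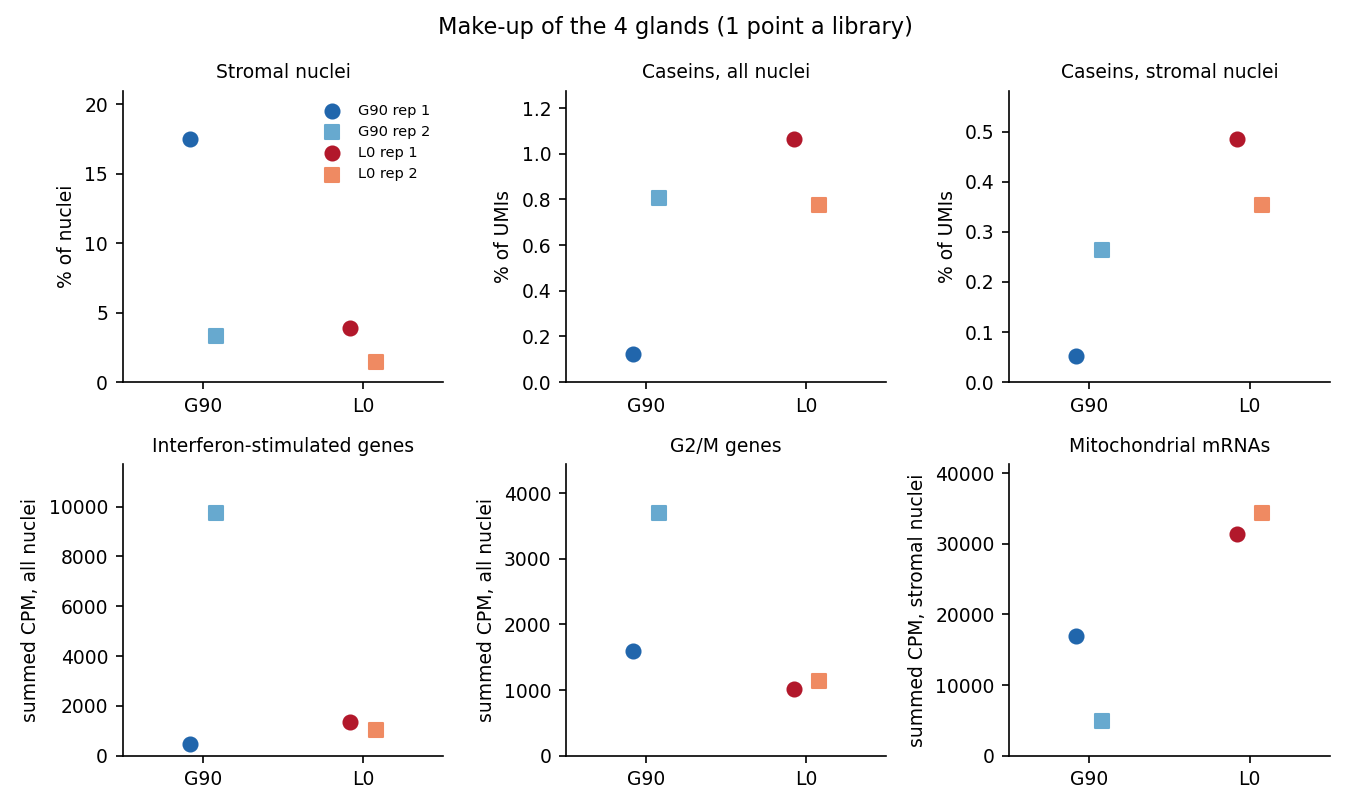
Make-up of the 4 glands, with 1 point for each library and the stage on the horizontal axis. The vertical axes give the stromal nuclei as a percentage of nuclei, the casein share of UMIs in all and in stromal nuclei, and the summed CPM of interferon-stimulated genes, of G2/M genes and of mitochondrial messenger RNAs. G90 replicate 1 held the most stromal nuclei, 17.5%, and G90 replicate 2 the highest interferon-stimulated sum, 9760 CPM.

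In all nuclei, 413 of 20217 genes tested differed between the stages, 285 higher and 128 lower at L0 (edgeR's quasi-likelihood test, Benjamini-Hochberg adjusted p under 0.05 and an absolute log2 fold change over 1). These are 2.04% of the genes tested, 1.41% for higher and 0.633% for lower. Among genes with a symbol and a mean of at least 20 CPM in the higher stage, the 12 that rose most included those of the hormone leptin, the lipid droplet protein PLIN5, the complement protein C3 and the lipopolysaccharide-binding protein LBP. Under the same limits, the 12 that fell most included mitotic genes, the R-spondin receptor LGR6 and the agrin co-receptor LRP4. Of the genes called, 281 had a symbol, and all 413 kept the libraries of the stages apart, as 50.0% of all genes did. Without a scaling factor between libraries, which moved the median over all genes from -0.14 to -0.54 on the log2 scale, 262 genes were higher and 478 lower. Leaving out G90 replicate 1, G90 replicate 2, L0 replicate 1 or L0 replicate 2 gave 1799, 810, 175 and 234 genes, and 1 fit over all 10 libraries of the series gave 0 genes, with 1676 at an unadjusted p under 0.05.

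LEP (ENSSSCG00000040464, chromosome 18, 20106867 to 20124071 of Sscrofa11.1), the gene of leptin, was at 1.57 and 1.53 CPM at G90 and at 41.7 and 49.9 CPM at L0. It rose 29.4-fold (log2 fold change 4.88 ± 0.44 SE, n = 2 per stage, adjusted p = 0.00325). PLIN5, which coats lipid droplets, went from 2.16 and 1.66 CPM to 53.3 and 53.2 CPM (log2 fold change 4.80, adjusted p = 0.00325). The defining adipocyte genes did not pass, with ADIPOQ (adiponectin) at 2.23 and 1.63 CPM at G90 and 1.97 and 1.25 CPM at L0, and PLIN1 at 3.08, 3.06, 1.42 and 2.37 CPM in the same order. Of 16 adipocyte markers tested, LEP and the fatty acid transporter CD36 rose and none fell, with a summed level of the list of 373 and 943 CPM at G90 and 2077 and 977 CPM at L0, and of 348 and 834 CPM at G90 and 576 and 464 CPM at L0 without these 2 genes. CD36 was at 23.1 and 108 CPM at G90 and 1460 and 463 CPM at L0. Its call was lost without L0 replicate 1.

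C3 (chromosome 2, 72431470 to 72471622), the central protein of the complement cascade, was at 52.1 and 58.3 CPM at G90 and at 1044 and 1321 CPM at L0 (log2 fold change 4.42 ± 0.52, adjusted p = 0.00873). LBP, which hands bacterial lipopolysaccharide to CD14, was at 6.41 and 15.2 CPM and rose to 227 and 173 CPM (log2 fold change 4.21). CD14 itself and the bacterial lipoprotein receptor TLR2 rose as well, by 3.25 and 2.38 on the log2 scale. These 3 were the called members of 12 tested antimicrobial and acute-phase genes, whose median log2 fold change was 1.81 beside -0.14 over all genes. Lactoferrin (LTF), which binds iron in milk, was at 97.5 and 127 CPM at G90 and 315 and 439 CPM at L0 and did not pass (adjusted p = 0.067). CD14 lost its call without G90 replicate 2 or L0 replicate 1, and TLR2 without L0 replicate 2.

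Other leading genes had no shared list. SNTG1, a syntrophin, was at 13.4 and 8.29 CPM at G90 and 283 and 350 CPM at L0, and FOXP2, a forkhead transcription factor, was at 58.5, 28.8, 773 and 681 CPM. NUPR1, a small stress-induced nuclear protein, was at 28.2 and 122 CPM and rose to 1119 and 1256 CPM. TMEM254, KLHL38, TOPAZ1, C1QTNF12 and the proton pump subunit ATP6V1G3 rose by between 3.98 and 4.52 on the log2 scale. The L0 libraries lay apart for TOPAZ1, at 114 and 28.7 CPM, and for C1QTNF12, at 46.6 and 9.73 CPM. Over the alternatives the log2 fold change ran from 3.22 to 5.37 for TOPAZ1 and from 2.86 to 5.11 for C1QTNF12. The rule that named these leading genes kept only genes whose stages do not overlap. TOPAZ1 lost its call without G90 replicate 2, and C1QTNF12 without G90 replicate 2 or L0 replicate 1.

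The genes that fell were led by SAPCD2, a regulator of spindle orientation, at 32.7 and 38.9 CPM at G90 and 0.944 and 1.07 CPM at L0 (log2 fold change -5.15 ± 0.46, adjusted p = 0.00325). LGR6 (chromosome 10, 24358946 to 24454430), a receptor for R-spondins, was at 177 and 198 CPM at G90 and 12.7 and 26.5 CPM at L0. AFF2 was at 304 and 180 CPM and fell to 20.7 and 34.1 CPM. LRP4, an agrin co-receptor, was at 43.7 and 105 CPM and fell to 6.73 and 7.95 CPM. APCDD1L fell from 68.5 and 4.47 CPM to 1.30 and 0.831 CPM, so that 1 G90 gland held most of its signal. Of the 24 leading genes in both directions, 13 were called whichever library was left out, LGR6 and AFF2 were not called without L0 replicate 1, EFR3B and DTX4 not without L0 replicate 2, and FAM135B not without G90 replicate 2 or L0 replicate 1.

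**Figure D2:**
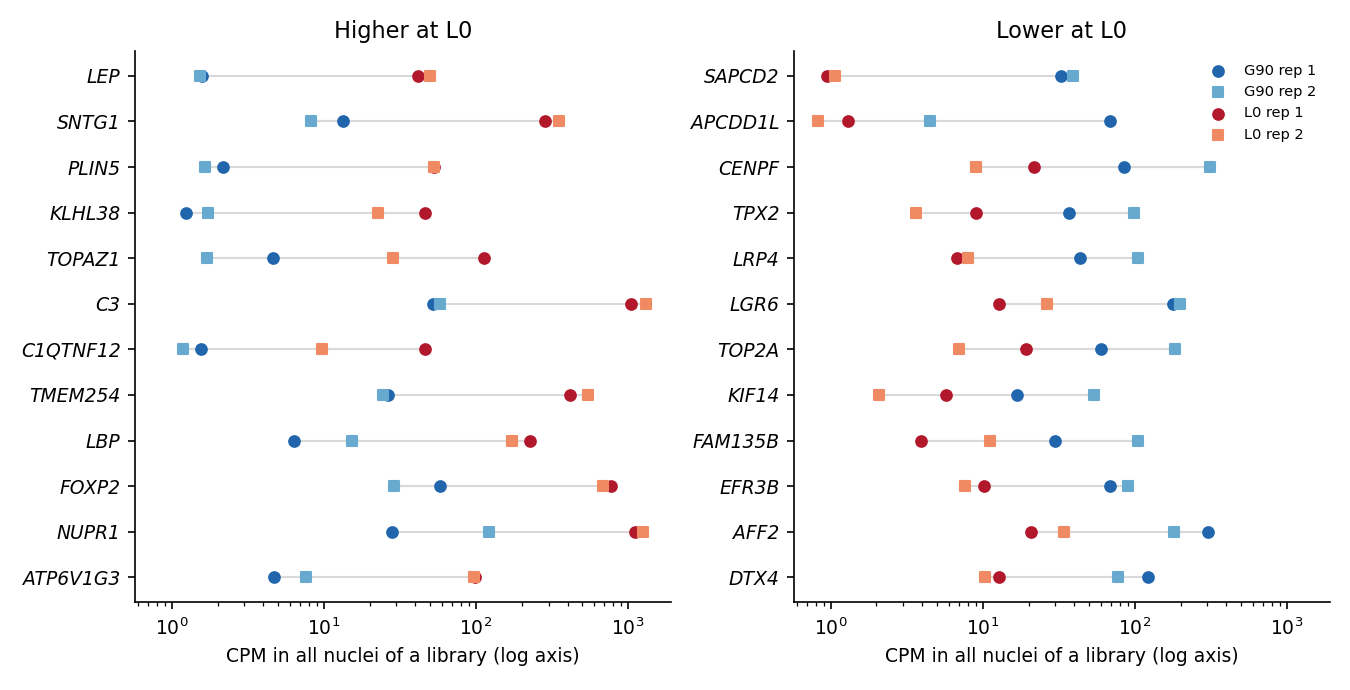
CPM in all nuclei of each library (log axis) for the 12 genes with the largest rise (left) and the 12 with the largest fall (right) from G90 to L0, with blue points for G90 and red points for L0. The 2 stages do not overlap for any gene shown. LEP went from under 2 CPM to over 40 CPM, and the 2 G90 libraries of APCDD1L lie far apart, at 68.5 and 4.47 CPM.

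Wnt signalling keeps mammary progenitors dividing, with R-spondins as ligands that raise it and AXIN2 as its common target. Of 37 Wnt and R-spondin genes tested, RSPO1, LGR6 and AXIN2 fell and none rose, and the list median was -0.70. RSPO1 was at 34.7 and 37.0 CPM at G90 and 3.15 and 5.16 CPM at L0. AXIN2 was at 34.9 and 31.1 CPM and fell to 4.13 and 6.17 CPM (adjusted p = 0.021). NKD1, another Wnt target, and CCND1 (cyclin D1), 2 genes outside the list picked after their values were seen, fell by 2.62 and 2.15, each lost without either L0 library. Without L0 replicate 1 none of the 3 list members was called, AXIN2 was also lost without L0 replicate 2, and without G90 replicate 1 the list median was 0.03.

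Some genes of dividing cells fell. Of 48 genes of the G2/M phase tested, 10 fell and none rose, 2 had a positive log2 fold change, and the median was -1.85. CENPF, a kinetochore protein, was at 85.1 and 313 CPM at G90 and 21.7 and 9.08 CPM at L0 (log2 fold change -3.69 ± 0.67, adjusted p = 0.0319). TOP2A, which untangles DNA before mitosis, was at 59.8 and 182 CPM and fell to 19.3 and 7.00 CPM. TPX2, a spindle assembly factor, was at 36.9, 98.9, 9.01 and 3.62 CPM, and KIF11, a spindle motor, at 35.0, 90.2, 14.0 and 5.88 CPM. Of 39 S phase genes, DTL, UHRF1 and E2F8 fell and none rose, with a list median of -0.80. All 10 G2/M calls were lost without G90 replicate 2, the gland with the higher level of these genes, and without L0 replicate 2, while the list median then was -1.20 and -1.70. CCNB2 and NDC80 were lost without L0 replicate 1 too. DTL was not called without either L0 library, E2F8 not without either replicate 2, and UHRF1 was called in the leave-out of G90 replicate 1 alone. CDKN1C, an inhibitor of the cell cycle chosen after its values were seen, rose from 5.49 and 3.56 CPM to 18.9 and 19.3 CPM, and was called in the leave-out of G90 replicate 1 alone.

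Promoters of G2/M genes often hold a CHR element (TTTGAA), the docking site of the DREAM and MYB-MuvB complexes, and CCAAT boxes, bound by NF-Y. In the 250 bases before the RefSeq start in Sscrofa11.1, on either strand, TTTGAA stood in 3 of the 10 promoters of the called G2/M genes and in 12.5% of 19531 promoters of protein-coding genes. CCAAT stood in 4 of the 10 and in 31.9% of all. This set was chosen after the values were seen, and the counts are a description. The promoters of CENPF (chr9:129012242-129012491, minus strand), TOP2A (chr12:22001050-22001299, plus strand), DLGAP5 (chr1:184550029-184550278, minus strand) and TPX2 (chr17:35431021-35431270, plus strand) are shown because the first 3 hold either motif and the last holds neither. They are written 5′ to 3′ along the gene, with TTTGAA and CCAAT, or their reverse complements, in capitals.
CENPF: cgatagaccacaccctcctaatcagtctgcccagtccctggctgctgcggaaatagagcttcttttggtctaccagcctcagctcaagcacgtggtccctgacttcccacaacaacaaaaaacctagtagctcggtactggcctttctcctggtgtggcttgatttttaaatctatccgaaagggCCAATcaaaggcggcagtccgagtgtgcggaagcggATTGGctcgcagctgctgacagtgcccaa
TOP2A: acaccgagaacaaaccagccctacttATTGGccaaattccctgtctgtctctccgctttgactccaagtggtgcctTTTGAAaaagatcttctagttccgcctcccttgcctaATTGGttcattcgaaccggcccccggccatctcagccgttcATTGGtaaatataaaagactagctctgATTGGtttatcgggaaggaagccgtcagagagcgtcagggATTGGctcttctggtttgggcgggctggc
DLGAP5: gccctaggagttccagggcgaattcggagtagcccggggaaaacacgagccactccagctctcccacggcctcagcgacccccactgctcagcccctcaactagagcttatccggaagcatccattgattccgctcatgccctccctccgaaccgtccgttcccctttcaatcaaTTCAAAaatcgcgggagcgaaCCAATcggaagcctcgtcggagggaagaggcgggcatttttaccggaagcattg
TPX2: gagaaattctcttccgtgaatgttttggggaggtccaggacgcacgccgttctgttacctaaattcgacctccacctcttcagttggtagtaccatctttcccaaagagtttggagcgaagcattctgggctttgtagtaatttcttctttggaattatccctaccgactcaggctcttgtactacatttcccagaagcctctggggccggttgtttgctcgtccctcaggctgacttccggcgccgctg
In TOP2A 5 CCAAT matches accompanied 1 CHR match, CENPF held 2 CCAAT matches and no CHR match, and DLGAP5 held 1 of each. TPX2, whose log2 fold change of -3.42 lay between those of CENPF and TOP2A, held no match in this window.

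Of 20 glucocorticoid-induced genes tested, 4 rose and none fell, 16 had a positive log2 fold change, and the median log2 fold change was 1.09. ZBTB16, a zinc finger repressor, was at 116 and 27.1 CPM at G90 and 855 and 627 CPM at L0 (log2 fold change 3.37 ± 0.68, adjusted p = 0.0395). PDK4, a kinase that spares glucose by blocking pyruvate dehydrogenase, was at 21.8 and 47.3 CPM and rose to 202 and 257 CPM. KLF15 rose from 6.64 and 4.57 CPM to 34.0 and 27.5 CPM, and TSC22D3, the leucine zipper protein GILZ, from 42.0 and 35.2 CPM to 207 and 138 CPM. FKBP5, the chaperone of the receptor, was at 123, 39.2, 510 and 166 CPM and did not pass (adjusted p = 0.136). ZBTB16 was called whichever library was left out. TSC22D3 was called only without G90 replicate 1, PDK4 was not called without L0 replicate 2, and KLF15 not without L0 replicate 1.

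None of the 10 milk protein genes tested passed, although all 10 had a positive log2 fold change, with a median of 0.93. LALBA (alpha-lactalbumin, the subunit that makes lactose synthase) was at 0.675 and 63.0 CPM at G90 and 731 and 622 CPM at L0 (log2 fold change 4.41 ± 1.38, adjusted p = 0.13), and was called in each of the 4 leave-outs, with log2 fold changes from 3.41 to 10.04. CSN3 (kappa-casein) was at 129 and 878 CPM at G90 and 2657 and 2115 CPM at L0 (adjusted p = 0.178). CSN1S1 was at 706, 4899, 6975 and 4639 CPM and CSN2 (beta-casein) at 70.0, 2515, 2149 and 2385 CPM, so that G90 replicate 2 reached the L0 level and G90 replicate 1 did not. The casein share of all UMIs was 0.121% and 0.806% at G90 and 1.06% and 0.775% at L0 (exact permutation p = 0.667). Summed markers of luminal epithelium, which include CSN2 and LALBA, stood at 4347 and 8361 CPM at G90 and 7594 and 8607 CPM at L0. Without G90 replicate 2, 7 of the 10 genes were called higher and the list median was 3.71. Without G90 replicate 1, 3 were called and the median was 0.42.

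The prolactin pathway gave 1 call among 18 genes. IRS2, an adaptor below the insulin and IGF receptors, was at 17.8 and 16.4 CPM at G90 and rose to 54.5 and 65.9 CPM, and this call was lost without either L0 library. Without G90 replicate 1, 4 genes of the list were called higher and 1 lower. The prolactin receptor PRLR was at 1427 and 1526 CPM at G90 and 644 and 809 CPM at L0 (log2 fold change -1.02 ± 0.49, adjusted p = 0.303). ELF5, the factor of the secretory lineage, was at 603, 1175, 1367 and 1323 CPM. STAT5A was at 594, 1005, 414 and 331 CPM and STAT5B at 1156, 1796, 1968 and 1830 CPM, and neither passed. None of 18 steroid receptors and their mammary targets passed, with ESR1 at 118, 129, 182 and 171 CPM and PGR, the progesterone receptor, at 49.2, 6.66, 30.4 and 35.4 CPM. Without G90 replicate 1, 2 genes of the list were called higher, PGR among them (log2 fold change 2.29, adjusted p = 0.0146), and 1 lower. Without G90 replicate 2, 2 were called lower, and without L0 replicate 1, 1.

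Of 37 genes of fatty acid and milk fat synthesis, LPIN2 (a phosphatidate phosphatase), INSIG2 and CD36 rose, none fell, and the median was 0.08. Leaving out a G90 library turned this list, with 4 genes higher, 7 lower and a median of -0.17 without replicate 1, and 7 higher, none lower and a median of 0.60 without replicate 2. INSIG2 went from 16.6 and 31.0 CPM to 180 and 173 CPM whichever library was left out, while the LPIN2 call needed both L0 libraries. Of 19 cholesterol synthesis genes HSD17B7 rose, from 11.7 and 35.5 CPM to 225 and 152 CPM. The median of that list was 0.05, and it was -0.31 without G90 replicate 1 and 0.79 without G90 replicate 2. None of 38 secretory chaperones and unfolded protein response genes passed, with a median of -0.07, and XBP1 was at 77.1, 330, 133 and 148 CPM. Without G90 replicate 1, 6 of them were called lower. None of 14 genes of lactose synthesis and glucose supply passed, and without G90 replicate 1, 2 were called lower.

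Transport and barrier genes gave a few calls. Of 22 genes of metal transport, SLC39A8, an importer of zinc and manganese, went from 78.2 and 133 CPM to 517 and 438 CPM, and CP (ceruloplasmin) from 3.96 and 3.14 CPM to 30.1 and 18.2 CPM. Of 32 amino acid transporters, SLC36A1 rose from 18.0 and 30.5 CPM to 127 and 112 CPM and SLC7A4, at under 5 CPM throughout, rose too. CLDN8 was the 1 called member of 23 tight junction genes, at 23.5, 33.8, 95.5 and 115 CPM. JCHAIN, which joins immunoglobulin A into dimers, was at 52.9 and 28.7 CPM and rose to 221 and 141 CPM, 1 call among 10 genes of antibody transport. The summed markers of B and plasma cells other than JCHAIN stood at 308, 138, 153 and 73.6 CPM. Of the 10 such markers tested, JCHAIN among them, 6 had a positive log2 fold change, with a median of 0.69 and 1 called. Of 22 chemokine genes CXCL2, which draws neutrophils, rose from 146 and 155 CPM to 1334 and 1142 CPM (log2 fold change 3.04, adjusted p = 0.0222). The calls of SLC39A8, SLC36A1, CLDN8 and CXCL2 were each lost without either L0 library, that of CP without G90 replicate 2 or L0 replicate 1, and that of JCHAIN in every leave-out but that of G90 replicate 1.

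Matrix genes gave few calls in all nuclei. None of 20 interstitial collagens was called and none had a positive log2 fold change (median -1.28). COL3A1 was at 276 and 59.0 CPM at G90 and 72.2 and 19.2 CPM at L0. The stromal shares of the libraries had the same order, but they are themselves counted from COL1A1, COL1A2 and DCN among other genes. What part these shares had in the collagen values was not tested. Without G90 replicate 1 the median of the list was -0.14, with 7 genes positive. Without G90 replicate 2, 2 collagens were called lower, and 5 with the replicate number as a block. Of 21 basement membrane genes LAMA1 fell, from 110 and 138 CPM to 17.2 and 24.8 CPM, and the protease ADAM12 fell from 213 and 56.0 CPM to 23.8 and 17.4 CPM. Both calls were lost without either L0 library. Of the vessel markers, 1 of 19 for endothelium and 1 of 14 for mural cells rose in all nuclei, the hypoxia factor EPAS1 from 21.5 and 14.0 CPM to 66.1 and 114 CPM and GUCY1B1, a subunit of the nitric oxide receptor, from 22.2 and 20.3 CPM to 151 and 180 CPM. Most other markers had lower values, with 7 of 19 and 5 of 14 log2 fold changes positive and medians of -0.36 and -0.35. EPAS1 was lost without either replicate 2. None of 29 interferon-stimulated genes was called, and their median of -2.42 turned to 1.03 without G90 replicate 2. Without G90 replicate 1, 26 of them were called lower, and 13 without L0 replicate 1. MX1, an antiviral GTPase, was at 789 CPM in G90 replicate 2 and at 6.93, 21.6 and 5.10 CPM in the others.

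**Figure D3:**
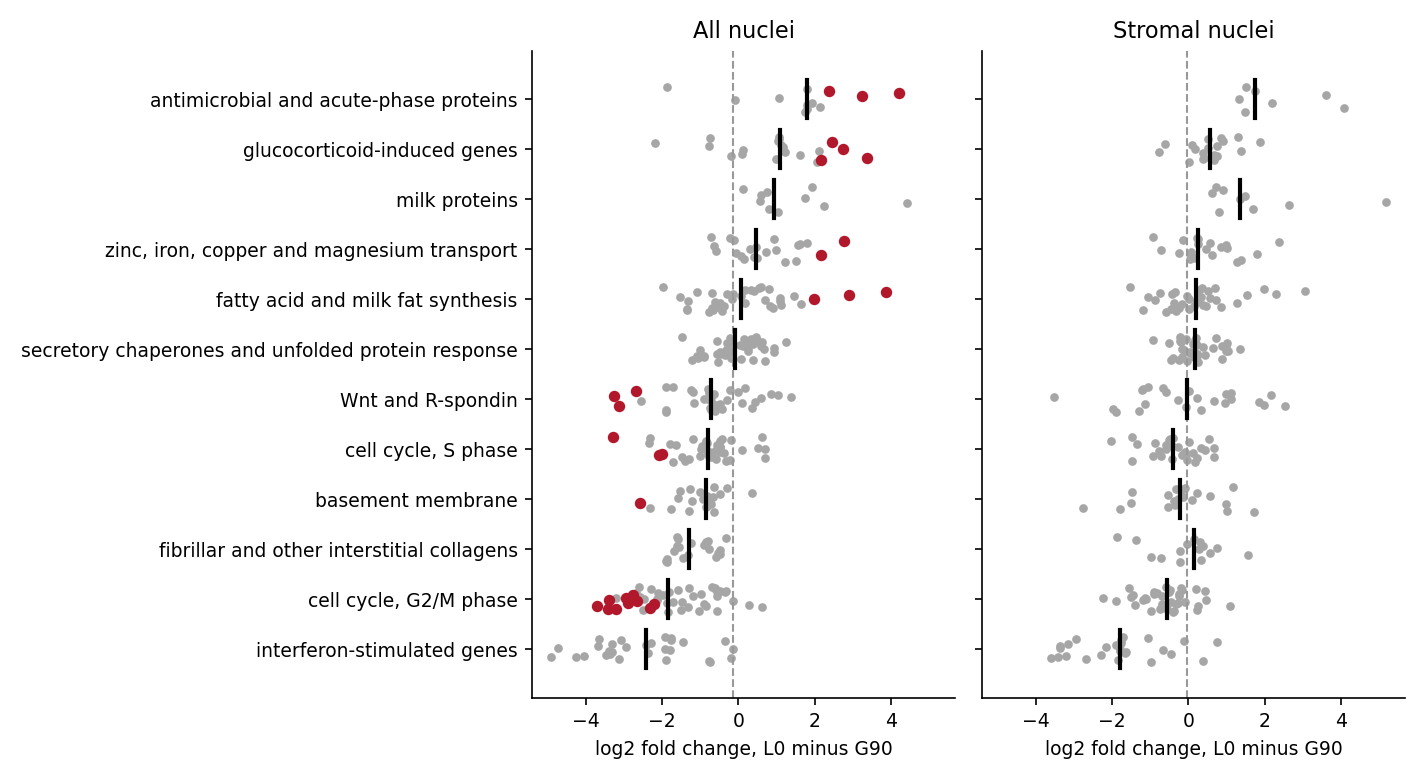
Log2 fold change (L0 minus G90) of every tested member of 12 gene lists in all nuclei (left) and in stromal nuclei (right), with red points for genes called, grey points for genes not called, a black bar at the list median and a dashed line at the median of all genes tested. In all nuclei the median of the G2/M list was -1.85 with 10 genes called and that of the antimicrobial list 1.81 with 3 genes called. In stromal nuclei no member of these lists was called.

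In stromal nuclei 7 of 11437 genes passed, 5 higher and 2 lower at L0, which is 0.0612% of the genes tested (0.0437% higher, 0.0175% lower), and 1565 genes had an unadjusted p under 0.05. These sums share their nuclei with those over all nuclei. C3 was at 55.7 and 42.0 CPM at G90 and 556 and 662 CPM at L0 (log2 fold change 3.62 ± 0.32, adjusted p = 0.0242). NALCN (chromosome 11, 69710355 to 70023020), a sodium leak channel, was at 54.5 and 78.0 CPM and rose to 792 and 594 CPM, and TMEM254 went from 23.7 and 14.7 CPM to 172 and 156 CPM. The other 4 genes had no symbol. Of these, ENSSSCG00000006350 was the most abundant and fell from 2370 and 2854 CPM to 160 and 317 CPM. All 7 calls were lost without either L0 library, and 0 of 4061 genes passed in casein-free stromal nuclei, which numbered 1383, 134, 43 and 32, with 479 at an unadjusted p under 0.05. There C3, NALCN and TMEM254 had log2 fold changes of 2.98, 2.52 and 2.60.

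Below the threshold, the leading genes by p with lower values were CEP152, a centriole protein, at 117 and 133 CPM at G90 and 17.2 and 19.5 CPM at L0, and AKAP11, at 130, 165, 27.6 and 24.3 CPM (adjusted p = 0.061 for both). ADAMTS18, a protease of the matrix, was at 191, 275, 54.0 and 53.6 CPM, and LGR6 at 112, 86.7, 11.5 and 0 CPM. Their L0 levels rest on few UMIs, 15 and 4 for CEP152, 24 and 5 for AKAP11, 47 and 11 for ADAMTS18 and 10 and 0 for LGR6. Over the 15 interstitial collagens tested in stromal nuclei the median log2 fold change was 0.16, with COL3A1 at -0.21 ± 0.33 and none called. The stromal sums ranged in depth from 217973 UMIs in L0 replicate 2 to 5418459 in G90 replicate 1, and without G90 replicate 1 or 2 the fit called 565 and 437 genes.

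Whether a gene changed differently in stromal and in other nuclei was tested as the interaction of stage and compartment, with the library as a block. Of 19229 genes, 500 passed apart from 3 genes of the rule, 151 with the more positive change in stromal nuclei and 349 with the more negative. With the 3, these are 2.62% of the genes tested, 0.801% and 1.81%. The split turned with the scaling, since size factors from the median ratio gave 349 and 281 genes and no scaling factor gave 454 and 116. It turned with the libraries too, with 72 and 557 genes without G90 replicate 1, 459 and 183 without G90 replicate 2, 242 and 101 without L0 replicate 1 and 159 and 301 without L0 replicate 2. The median difference over all genes was -0.29 on the log2 scale, against which the values below should be read. The other nuclei hold those with exactly 1 UMI of the rule's genes and none of EPCAM. These made up 15.0% and 4.57% of nuclei at G90 and 4.90% and 1.84% at L0. The rule chose stromal nuclei by matrix and vessel genes, and their median was 2076 and 1983 UMIs at G90 and 1584 and 1207 UMIs at L0. What part the rule, this depth and the nuclei with 1 such UMI had in the differences of stromal genes was not tested. Casein-free stromal nuclei gave 152 genes, and of 77 genes named in this test, 17 were called there in the same direction, 58 lost their call and 2 turned in sign. The median difference over all genes was -1.39 in that run, with 14 genes called for the more positive change and 138 for the more negative. Calls kept or lost in casein-free nuclei should be read against that median.

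Of 21 basement membrane genes tested, 4 were called for a more positive change in stromal nuclei and none for a more negative one, with a median difference of 0.52. COL4A1, a chain of the type IV collagen network under endothelium and epithelium, was at 309 and 410 CPM in stromal nuclei at G90 and at 1230 and 959 CPM at L0. In the other nuclei it was at 61.6 and 86.2 CPM at G90 and at 46.4 and 18.9 CPM at L0. The 2 changes differed by 2.89 ± 0.29 on the log2 scale (adjusted p = 7.52e-08), and COL4A1 passed in every alternative run, with a difference between 2.41 and 3.66. COL4A2 differed by 2.43, COL18A1 by 1.60 and HSPG2 (perlecan) by 1.27. HSPG2 was lost without either L0 library, and it and COL18A1 in casein-free stromal nuclei. In the fit of stromal nuclei alone COL4A1 had a log2 fold change of 1.72 and did not pass (adjusted p = 0.0756), and over the list 7 of 20 genes had a positive value, none was called and the median was -0.23. The 18 markers of blood vessel endothelium other than PTPRB, a gene of the rule, stood together in stromal nuclei at 2039 and 2131 CPM at G90 and 3188 and 3501 CPM at L0, with 16 log2 fold changes positive, a median of 0.71 and none called. The 14 mural markers other than RGS5 of the rule stood together at 1177 and 575 CPM at G90 and 1989 and 1203 CPM at L0, and all 9 of them that were tested had a positive log2 fold change, with a median of 1.14 and none called. What part a different mix of vessel and other stromal nuclei had in the basement membrane values was not tested.

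Of 20 glucocorticoid-induced genes tested, 7 were called for a more negative change in stromal nuclei than in the others. In the fit of stromal nuclei alone 17 of 19 had a positive log2 fold change, with a median of 0.56 and none called. ZBTB16 was at 324 and 274 CPM in stromal nuclei at G90 and 470 and 360 CPM at L0, while in the other nuclei it was at 85.3 and 21.4 CPM and then at 929 and 666 CPM (difference -3.72 ± 0.35, adjusted p = 2.04e-08). FKBP5 was at 228, 241, 325 and 107 CPM in stromal nuclei and at 112, 35.7, 552 and 176 CPM in the others (difference -2.62). PDK4, TSC22D3, ERRFI1, GLUL and KLF9 differed by between -2.66 and -1.52. At G90 the stromal level of ZBTB16 and FKBP5 was above that of the other nuclei in both libraries. The differences of ZBTB16, FKBP5, PDK4 and TSC22D3 were called whichever library was left out, while ERRFI1 was lost without G90 replicate 2 or L0 replicate 1, GLUL without G90 replicate 1 or L0 replicate 2, and KLF9 in every leave-out but that of G90 replicate 1. In casein-free stromal nuclei ZBTB16, FKBP5, PDK4 and GLUL were called and the other 3 were not.

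**Figure D4:**
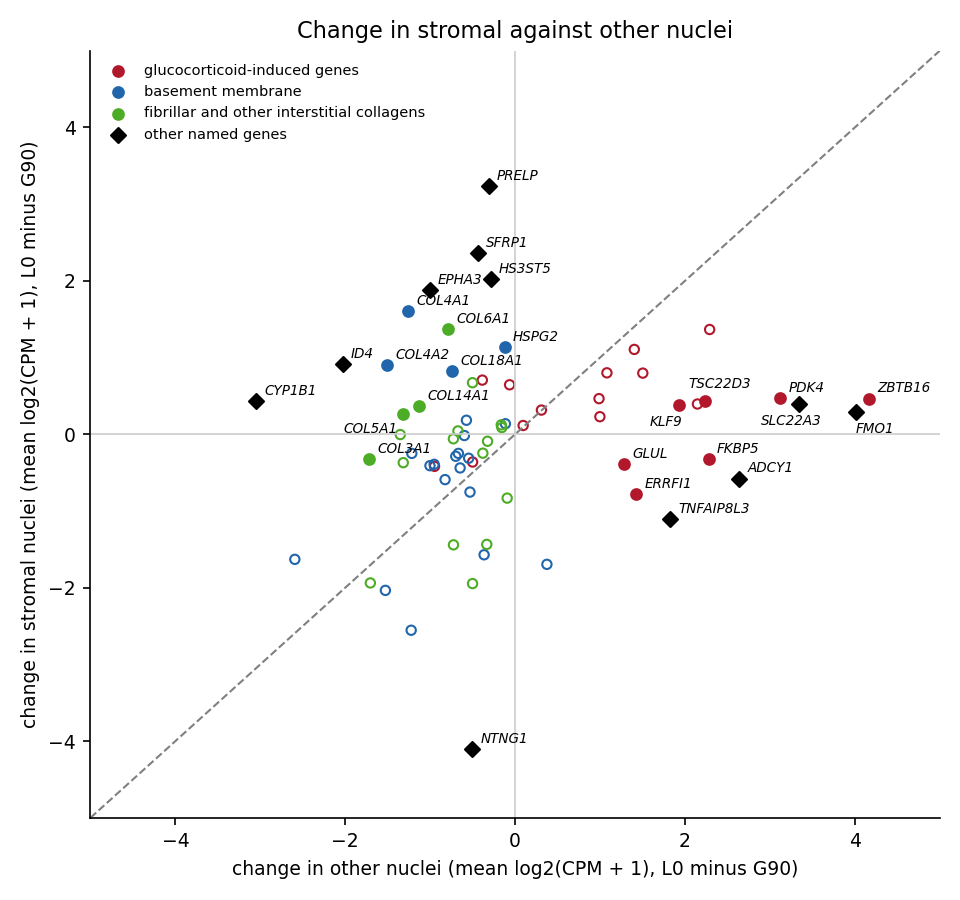
Change from G90 to L0 in stromal nuclei (vertical) against the change in all other nuclei (horizontal), each as the difference of mean log2(CPM + 1), for the members of 3 gene lists and 11 other named genes. Filled points passed the test of the difference and open points did not, and the dashed line marks equal change. COL4A1 and PRELP lie above the line, and the called glucocorticoid-induced genes, ZBTB16 furthest out, lie below it.

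Among single genes, CYP1B1, an oestrogen-metabolising enzyme, was at 15.0 and 20.0 CPM in stromal nuclei at G90 and 14.5 and 38.6 CPM at L0, but at 17.6 and 7.62 CPM and then at 0.699 and 0.381 CPM in the other nuclei (difference 4.76 ± 0.78, adjusted p = 0.000234). Its L0 levels rest on few UMIs, and the difference ran from 3.84 to 6.41 over the alternatives. SFRP1, a secreted Wnt inhibitor, was at 34.8 and 30.0 CPM in stromal nuclei at G90 and at 225 and 129 CPM at L0 (difference 2.98). IGFBP2, which binds insulin-like growth factors, was at 80.5, 68.6, 607 and 223 CPM there, against at most 19.5 CPM in any library of the others (difference 2.58). FMO1, a flavin monooxygenase, was at 22.4 and 12.1 CPM in the other nuclei at G90 and at 535 and 148 CPM at L0, and at 112, 422, 366 and 193 CPM in stromal nuclei (difference -3.85). CXCL2 changed less in stromal nuclei too (difference -1.95 ± 0.26, adjusted p = 1.23e-05), at 221, 184, 508 and 407 CPM there and at 142, 164, 1459 and 1217 CPM in the others.

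Further groups gave calls in this test. Of 18 interstitial collagens, COL3A1, COL5A1, COL6A1 and COL14A1 had the more positive change in stromal nuclei, by between 1.45 and 2.30, and of these COL6A1 was called whichever library was left out. COL3A1 and COL5A1 were lost without G90 replicate 1, the library with the most stromal nuclei, and without L0 replicate 2, and COL14A1 without either replicate 2. Over the 15 collagens tested in the fit of stromal nuclei alone, the median log2 fold change was 0.16 and none was called. The rule itself holds COL1A1 and COL1A2. In the endothelium, VWF (von Willebrand factor) and PECAM1 differed by 1.43 and 1.06, 2 of 18 markers of blood vessels. VWF was lost without G90 replicate 1, PECAM1 without G90 replicate 2, and both without L0 replicate 2. Of 47 G2/M genes, TOP2A, TPX2, CENPF and CKAP2 had the more positive change in stromal nuclei, where TOP2A was at 44.7, 81.5, 43.6 and 30.0 CPM, against 67.3, 196, 19.6 and 7.05 CPM in the others. TOP2A was called whichever library was left out but not in casein-free stromal nuclei, where the other 3 were not called either. Its difference was 2.35 in the main fit and 0.63 in casein-free stromal nuclei (adjusted p = 0.931), beside medians over all genes of -0.29 and -1.39. TPX2 was lost without G90 replicate 2, CENPF without L0 replicate 2, and CKAP2 in every leave-out but that of L0 replicate 2. Of the prolactin list, the growth hormone receptor GHR and the factor NFIB differed by -1.57 and -1.32, with NFIB at 976 and 1073 CPM in the other nuclei at G90 and at 3673 and 4336 CPM at L0. GHR was lost without L0 replicate 1, and NFIB without that library or G90 replicate 2. Of these genes and of CYP1B1, SFRP1, IGFBP2, FMO1 and CXCL2, the differences of COL6A1, NFIB, IGFBP2, FMO1 and CXCL2 were called in casein-free stromal nuclei and the rest were not.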

How the data were processed

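Single-nucleus RNA sequencing of mammary glands was used, 2 libraries of G90 and 2 of L0, with the other 6 nucleus libraries entering an alternative fit alone. The authors made GEXSCOPE libraries, aligned reads to Sscrofa11.1 and counted UMIs in CeleScope v1.1.7 (per the study's methods and the labels), and deposited raw counts per gene and called barcode, without normalization or removal of doublets or free RNA. Doublets were kept here. The annotation release and the strand setting of the counting are not given in the sources used here, so overlapping genes cannot be told apart. The files hold 28711 gene identifiers, 15457 with a symbol and 644 more named from RefSeq. CSN1S2 was matched to no identifier, so 3 caseins were summed.

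Groups followed the labelled stage. UMI counts were summed per library and tested with edgeR 4.0.16 (R 4.3.3; quasi-likelihood, TMM factors, its filter on low counts, Benjamini-Hochberg over all genes tested), since the study's own test took nuclei as replicates. CPM are scaled by TMM-adjusted totals, and those of stromal and other nuclei side by side come from the 1 fit of their 8 sums. The fits were also run on simulated counts with known changes, and the outcome is not given here. Shares were compared by exact permutation. The p-values of edgeR set a change against the spread between the 2 sows of a stage, drawn towards the spread of the other genes tested. The exact permutation tests estimate no such spread. Gene positions come from RefSeq, which held 72 of the 75 genes searched. The members, the 44 gene lists (988 of 1079 entries matched to an identifier; the S and G2/M lists ship with Seurat) and the tests were chosen with earlier results of these data known.

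Named genes were the 12 called genes with the largest fold change in each direction among those with a symbol, a mean of at least 20 CPM in the higher stage and libraries of the stages apart, the called members of each list described (or the 4 most abundant where more than 4 or none were called) with defining genes, and 6 genes in each direction of the interaction. In stromal nuclei fewer genes were called. Where no called gene met these limits, uncalled genes with the smallest p under the same other limits are given as not passing. Alternatives were DESeq2 1.42.0, other size factors, no filter on low counts, the replicate number as a block, each library left out, other limits on nuclei and on stromal UMIs, casein-free stromal nuclei, thinning to 500 UMIs and all 10 libraries. No scaling factor, and sums over all but the stromal nuclei, were added after seeing the data.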

Additional observations from a re-analysis of the deposited data

Results flagged for a closer look

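The change from G90 to L0 differed between stromal and other nuclei of the same libraries, by the test of the interaction of stage and compartment (edgeR's quasi-likelihood test, Benjamini-Hochberg adjusted), in 500 genes. The more positive change in stromal nuclei was that of CYP1B1 (4.76 on the log2 scale), PRELP (3.51), ID4 (3.49), EPHA3 (3.03), SFRP1 (2.98) and HS3ST5 (2.92). PRELP, a proteoglycan of connective tissue, was at 8.58 and 0 CPM in stromal nuclei at G90 and at 45.7 and 17.1 CPM at L0, and ID4, an inhibitor of basic helix-loop-helix factors, was at 21.2 and 8.57 CPM in the other nuclei at G90 and at 2.88 and 2.29 CPM at L0. EPHA3, an ephrin receptor, was at 53.1, 23.6, 118 and 150 CPM in stromal nuclei.

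The more negative change was that of NTNG1 (-4.18), FMO1 (-3.85), ZBTB16 (-3.72), ADCY1 (-3.19), SLC22A3 (-3.03) and TNFAIP8L3 (-3.03). NTNG1 was at 15.3 and 35.8 CPM in stromal nuclei at G90 and at 1.04 and 0 CPM at L0, so that its fitted difference, from -10.97 to -3.17 over the alternatives, is no measure of size. The same holds for PRELP, with 0 CPM in 1 library and values from 0.49 to 11.8. Few UMIs lie behind other sizes too, since the stromal sum of L0 replicate 2 held 217973 UMIs. There ID4 and HS3ST5 were at 17.1 CPM each and ADCY1 at 8.57 CPM. CYP1B1 was at 0.699 and 0.381 CPM in the other nuclei at L0. The fitted differences of these genes are rough as measures of size. SLC22A3, an organic cation transporter, was at 14.7, 8.55, 138 and 109 CPM in the other nuclei. All 12 kept their sign in every alternative run. PRELP, HS3ST5, NTNG1 and ID4 lost their call when some single library was left out, PRELP and NTNG1 without G90 replicate 2 or L0 replicate 1, HS3ST5 without replicate 1 of either stage and ID4 without L0 replicate 1.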

How the results depend on the processing

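Counts of genes and their split by direction both moved. In all nuclei, where 413 genes were called, DESeq2 called 1446 (914 higher, 532 lower), no filter on low counts gave 1306 (751 and 555), the replicate block 1170 (776 and 394), no scaling factor 740 (262 and 478), sums without stromal nuclei 658 and all 10 libraries in 1 fit 0, and leaving out 1 library gave 175 to 1799, with more lower than higher without G90 replicate 1 (818 and 981). In stromal nuclei, where 7 were called, the counts were 148 with DESeq2, 529 with no filter, 150 with the replicate block, 49 with at least 500 genes per nucleus, 3 with at least 3 stromal UMIs, 0 in casein-free nuclei, 0 in the fit of 10 libraries (863 at an unadjusted p under 0.05), and 0 to 565 with 1 library left out. For the difference of change, where 500 were called, DESeq2 gave 171 (104 and 67) and casein-free stromal nuclei 152 (14 and 138), and the other alternatives between 343 and 642, with more positive than negative differences under 5 of them, as no filter on low counts (324 and 205) and others given above. The cause of these moves was not tested. Leaving out a library left 1 stage with a lone sample, assumed to vary like the other stage.

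Same-numbered libraries did not deviate together (Pearson correlation of deviations from stage means -0.0121 in all nuclei, 0.0171 in stromal nuclei), so the replicate block pairs libraries that share only a number. Of 73 genes named in all nuclei, 64 were called in the main fit. All 64 lost their call in the fit over 10 libraries. The leave-outs of G90 replicate 2, L0 replicate 1 and L0 replicate 2 took the call from 22, 29 and 36 of them.

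Among named genes, signs in all nuclei turned only for genes that had not passed. In the difference of change they turned for TPX2 and CKAP2, which had passed. EPCAM (log2 fold change -0.06) was at 0.030 with the replicate block, PGR at -0.33 with no scaling factor, and over the leave-outs EPCAM ranged from -0.51 to 0.66, CSN2 from -0.16 to 5.10, PGR from -0.50 to 2.29 and ADIPOQ from -0.59 to 0.055. In casein-free stromal nuclei the difference of change of TPX2 turned to -9.32 and that of CKAP2 to -7.26, where both L0 sums were 0 UMIs, so that these fitted values are no measure of size. The differences in the shares of stromal nuclei, EPCAM nuclei and caseins kept their direction in every alternative run, with stromal shares -14.8 to -0.667 and EPCAM shares -15.4 to -2.29 percentage points over the leave-outs, and casein shares 0.114 to 0.798 in all and 0.156 to 0.367 in stromal nuclei. The stromal sum of L0 replicate 2 rests on 136 nuclei.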

Other observations

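Further genes of matrix and vessel walls changed differently in stromal and other nuclei. The rule chose the stromal nuclei by genes of these kinds, and what part that choice and depth had in the differences was not tested. Of 34 proteoglycans and matricellular proteins, 6 had the more positive change in stromal nuclei, FMOD (fibromodulin, 2.17 on the log2 scale), PRELP (3.51), TNC (tenascin-C, 1.74), TNXB (1.37), SPARCL1 (2.00) and ELN (elastin, 2.15), and VCAN (versican) had the more negative (-1.43). Over the 4 leave-outs TNC, TNXB and ELN were called in 1 each, FMOD, PRELP and VCAN in 2, and SPARCL1 in all but that of G90 replicate 1. The summed fibroblast markers of stromal nuclei, without those of the rule, stood at 5567, 4593, 6127 and 4066 CPM. Of 37 genes of TGF-beta, activin and BMP signalling, ENG (endoglin, an endothelial co-receptor) differed by 1.97 and ID2 by 1.61, while TGFB2 differed by -1.76 and its receptor TGFBR2 by -1.21. ENG and ID2 were lost without G90 replicate 1 or L0 replicate 2, and TGFB2 and TGFBR2 without L0 replicate 1. Of 13 mural genes 4 were called and these were split, with NOTCH3 (2.04) and MYH11 (smooth muscle myosin, 1.31) on one side and both subunits of the nitric oxide receptor, GUCY1A1 (-1.03) and GUCY1B1 (-1.88), on the other. GUCY1B1 was called whichever library was left out. GUCY1A1 was called only without G90 replicate 1, NOTCH3 was lost without replicate 1 of either stage and MYH11 without L0 replicate 1. The paper lists MYH11 among its markers of myoepithelial cells. Of 12 myoepithelial markers in this test, 3 were called for the more positive change in stromal nuclei and 0 for the more negative. Their median was 0.81, with 10 positive. What part myoepithelial cells had in the MYH11 difference was not tested.

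A few genes called in all nuclei and picked after their values were seen belong to no list. VDR, the vitamin D receptor, was at 35.3 and 101 CPM at G90 and 344 and 537 CPM at L0 (log2 fold change 2.69 ± 0.57, adjusted p = 0.0453). TXNIP, which binds thioredoxin and follows glucose supply, was at 171 and 202 CPM and rose to 928 and 1215 CPM, and BCL6, a transcriptional repressor, was at 23.8 and 44.8 CPM and rose to 113 and 195 CPM. The calls of TXNIP and BCL6 were lost without either L0 library, and that of VDR without L0 replicate 2.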
